A study of Bos taurus with 2 samples.

Results

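Genes of the amino acid transporters were examined in bovine embryos from in vitro fertilization (IVF), 1 CDKN1C-siRNA-injected pool and 1 Sham-injected pool, called the siRNA pool and the sham pool below. The members are the gene symbols of the SLC1A1 to SLC1A7, SLC3A, SLC7A, SLC36A, SLC38A and SLC43A series. They were taken by name, with earlier results of these data known. Of 21209 symbols in the authors' values, 36 were members, each at 1 locus, and 20 of these had an average of 1 FPKM or more over both pools. FPKM, a fragment count divided by transcript length and here scaled by the authors with an upper-quartile factor per library, is a level per length. Levels of different genes are set side by side on it, within the limit that RNA amplified from the poly(A) end can make a level depend on the gene model. Zygotes of both groups were stripped of their cumulus cells and pierced with a microinjection needle, and the sham embryos were given no siRNA. The methods describe culture to the blastocyst stage and an siRNA dose for the injection experiments, without repeating either for the sequenced pools, and the number and sex of the pooled embryos are not stated. The paper's RNA-Seq methods also name a pool from control embryos, which was not analysed here. They name none from the embryos given an siRNA against green fluorescent protein, so the pools hold no control for siRNA delivery. With 1 library in each group there is no replicate, so no difference has an error or a p-value, and "higher" and "lower" below describe these 2 libraries.

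Amino acid carriers move the building blocks of protein across the cell membrane and out of the lysosome. Several work as pairs: a heavy chain of the SLC3 family takes a light chain of the SLC7 family to the membrane, and the light chain does the transport, mostly as an exchanger. Others couple the amino acid to sodium (SLC1 and SLC38) or to protons (SLC36), or let it pass down its gradient (SLC43). In the blastocyst, uptake of leucine and arginine is known to feed growth signalling through the kinase complex mTORC1, and in the mouse to support the outgrowth of the trophectoderm, the outer layer that forms the placenta. No sequence file of these genes was used here, so the members are given by locus and value.

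CDKN1C, the siRNA target, was 14.6 FPKM in the siRNA pool and 49.5 FPKM in the sham pool. All differences here are log2 of the siRNA value over the sham value, with 1 FPKM added to each. This understates the change of low genes, and values named as ratios are without that addition. By this measure 213 of 7984 genes averaging 1 FPKM or more lay at or below CDKN1C. Over those 7984 genes the median difference was -0.17. How many reads stand behind a value is unknown. Among 839 loci above 0 and under 0.06 FPKM in both pools, the ratios gathered in the log2 bin from -0.2 to -0.1, which held 109 of them, around a ratio of 0.904. That ratio was taken as the worth of a single fragment in the siRNA pool relative to the sham pool, and it does not give the depth. Blastocyst markers were present, and those of the trophectoderm differed in both directions. Of 9 genes, 4 were higher in the siRNA pool, 2 of them by 2-fold or more. The other 5 were lower, 3 of them by 2-fold or more. Of the 7984 genes, 4.92% were higher and 15.7% lower by that size. KRT18 was 5389 FPKM in the siRNA pool and 11245 FPKM in the sham pool, whereas IFNT2, an interferon tau gene, was 134.6 against 31.1 FPKM. POU5F1, listed here among the inner cell mass markers, was 56.3 against 170.1 FPKM. Summed levels were 7688 against 17589 FPKM for the 9 trophectoderm markers, mostly from KRT8 and KRT18, and 687.7 against 584.7 FPKM for the other 7. They were 183.8 against 316.6 FPKM for the 5 listed for the inner cell mass, POU5F1 included. For the 6 listed for the hypoblast they were 17.9 against 19.4 FPKM, mostly from GATA6, with SOX17 at 0 in both pools. Within that list HNF4A was 1.16 against 3.78 FPKM and PDGFRA 2.58 against 1.82 FPKM. Markers of other cells also differed. For 8 fibroblast markers, of which 2 averaged 1 FPKM or more, the sum was 7.60 FPKM in the siRNA pool against 1.39 FPKM, mostly from LUM, with COL1A1 at 0 in both. For 8 markers of cumulus and granulosa cells, of which 2 averaged 1 FPKM or more, it was 8.47 against 22.0 FPKM, mostly from HSD3B1 and FSHR, with PTX3, FOXL2 and AMH at 0. For 6 oocyte markers it was 10.2 against 24.3 FPKM, mostly from ZP3, and for 5 blood markers 13.6 against 14.3 FPKM, mostly from HBA, with HBB at 0. Their part in the differences of the transporters was not tested, and in pooled embryos fewer cells of a type and less RNA per cell cannot be told apart.

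The transporters as a group were lower in the siRNA pool by sum, mostly through 2 genes, SLC7A4 and SLC7A5. The 36 members summed to 170.1 FPKM in the siRNA pool and 243.2 FPKM in the sham pool. These were 0.0168% and 0.0182% of all FPKM. The direction of the share rested on SLC7A4: without it the members were 0.0163% of all FPKM in the siRNA pool and 0.0158% in the sham pool, and without SLC7A4 and SLC3A2 the other 34 were 0.0160% and 0.0150%, or 162.4 against 200.8 FPKM. Of the 20 members averaging 1 FPKM or more, 0 were higher by 2-fold or more in the siRNA pool and 2 were lower, SLC7A4 and SLC3A2. Over all 7984 genes, 4.92% were higher and 15.7% lower by that size, so the members' counts lie near those of the background. At a fold of 1.5 or more, 1 member was higher and 5 were lower, against 14.9% and 30.5% of all genes, and at 4-fold or more 0 were higher and 1 was lower, against 0.413% and 1.05%. The median difference of the members was -0.086, against -0.17 over all genes, and 11 members lay above the median of all genes and 9 below it. This order turned under 2 alternatives. With a loess fit on locus length removed, the members' median was -0.13 against 0.011 over all genes, with 7 members above the latter and 13 below, and with no filter on low values it was -0.050 against -0.031, with 14 above and 19 below. Relative to 0, 7 members were higher and 13 lower, and 13 were higher and 7 lower once the pools were given equal FPKM totals, which put the median of all genes at 0.17. The direction of members with small differences therefore depended on the scaling, while SLC7A4, SLC3A2, SLC7A5 and SLC1A3 kept theirs.

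**Figure D1:**
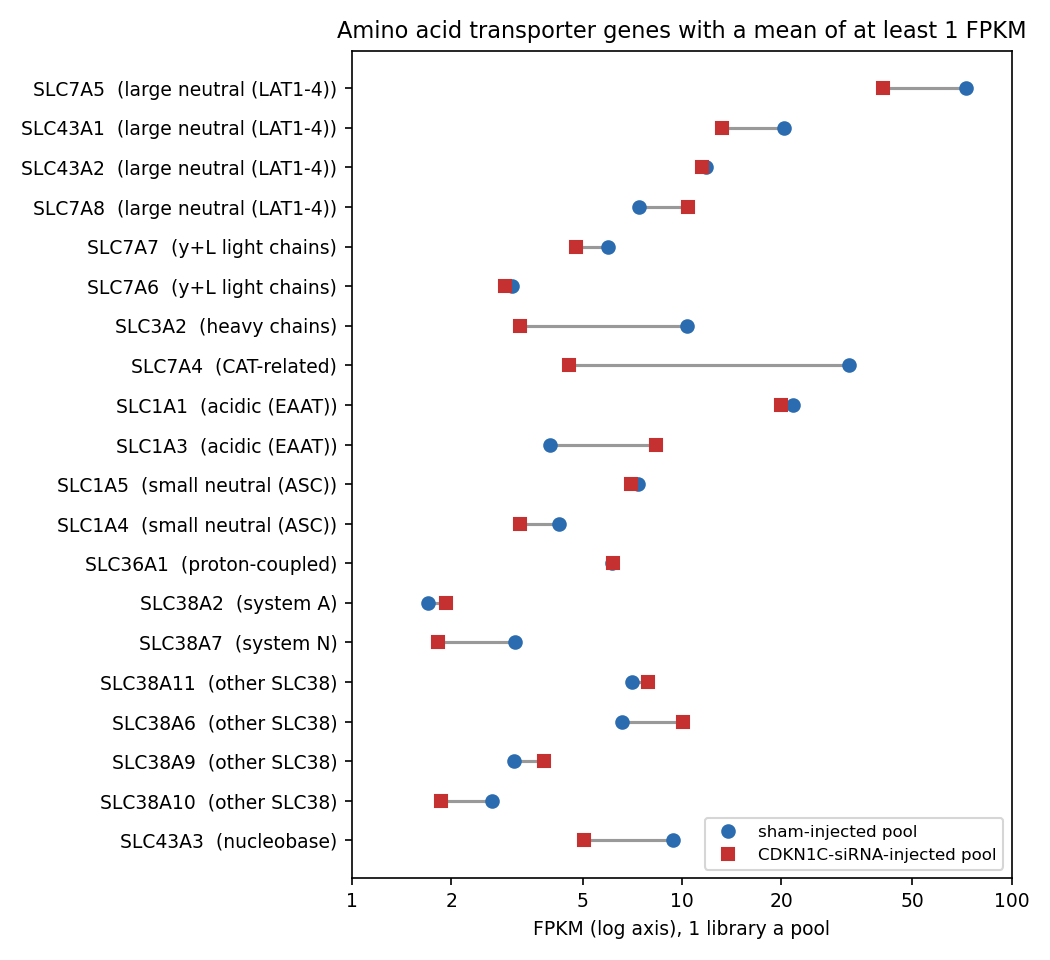
FPKM (horizontal, log axis) of the 20 amino acid transporter genes averaging 1 FPKM or more, by class, in the sham pool (blue circles) and the siRNA pool (red squares), 1 library each. SLC7A4 and SLC3A2 lie farthest apart, with the sham value higher, and SLC1A3 is the widest gap in the other direction.

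SLC7A4 had the largest difference of the 20 members. It encodes a relative of the cationic amino acid transporters whose own substrate is not settled. Its locus on chromosome 17 of bosTau7, from 75507216 to 75510133, was the shortest of the members at 2918 bases. It was 4.55 FPKM in the siRNA pool and 32.0 FPKM in the sham pool, a ratio of 7.04 in favour of the sham pool and a log2 difference of -2.57. By this measure 17 of 7984 genes, SLC7A4 included, were as low. With a loess fit on locus length removed, the difference of SLC7A4 was -2.05. In the sham pool it was second among the members by level, at 13.2% of their summed FPKM, and in the siRNA pool it was at place 13, at 2.67%. The study listed SLC7A4 among its differential genes from these same pools, so its difference is not an independent observation. SLC7A14, the other CAT-related member, was listed at 0 in the siRNA pool and at 0.0225 FPKM in the sham pool.

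The cationic amino acid transporters themselves, which carry arginine, lysine and ornithine, were listed close to 0 in both pools. SLC7A1, or CAT1, the arginine carrier of most tissues, was listed at 0 in the siRNA pool and at 0.0463 FPKM in the sham pool, on chromosome 12 of bosTau7 from 30680500 to 30695031. Whether the gene models at this and the other loci near 0 are complete was not tested, so these are the listed values only. SLC7A2, which encodes CAT2, was 0.0186 against 0.0204 FPKM, and SLC7A3, which encodes CAT3, was 0.0207 FPKM in the siRNA pool and listed at 0 in the sham pool. No difference can be read at these levels. Among the members averaging 1 FPKM or more, cationic amino acids were represented by SLC7A6 and SLC7A7, the y+L light chains that exchange a cationic amino acid for a neutral one with sodium. SLC7A7 was 4.77 FPKM in the siRNA pool and 5.97 FPKM in the sham pool, while SLC7A6 was 2.92 against 3.06 FPKM, log2 differences of -0.27 and -0.050 that both turned positive with equal totals.

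Carriers of large neutral amino acids held the largest share of transporter FPKM in both pools, 44.6% in the siRNA pool and 46.1% in the sham pool. SLC7A5, or LAT1, the light chain that exchanges leucine, phenylalanine and other large neutral amino acids, was the highest member in each pool. It lies on chromosome 18 of bosTau7 from 12470222 to 12499135 and was 40.8 FPKM in the siRNA pool and 72.4 FPKM in the sham pool, 1.78 times as high in the latter. Its log2 difference of -0.81 was inside 2-fold, with 22.0% of all genes as low. SLC7A8, or LAT2, a light chain for a broader range of neutral amino acids, went the other way, at 10.4 FPKM in the siRNA pool and 7.43 FPKM in the sham pool, so that SLC7A5 was 3.91 times SLC7A8 in the siRNA pool and 9.75 times in the sham pool. The facilitative carriers that need no heavy chain are SLC43A1, or LAT3, and SLC43A2, or LAT4. SLC43A1 was 13.2 FPKM in the siRNA pool and 20.4 FPKM in the sham pool, a log2 difference of -0.59. SLC43A2 was 11.5 against 11.8 FPKM, a log2 difference of -0.031 that was 0.34 with equal totals. The 4 genes together were 76.0 FPKM in the siRNA pool and 112.1 FPKM in the sham pool.

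SLC43A3 belongs to the same family by sequence but carries purine nucleobases, and it was 5.06 FPKM in the siRNA pool and 9.43 FPKM in the sham pool, a log2 difference of -0.78. It lies beside SLC43A1 on chromosome 15, with 51472 bases between the loci, and both were lower in the siRNA pool. So were all 9 genes averaging 1 FPKM or more within 250 kb of SLC43A1, SLC43A3 among them, with a median of -0.81. Of all genes tested, 58.3% were lower.

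**Figure D2:**
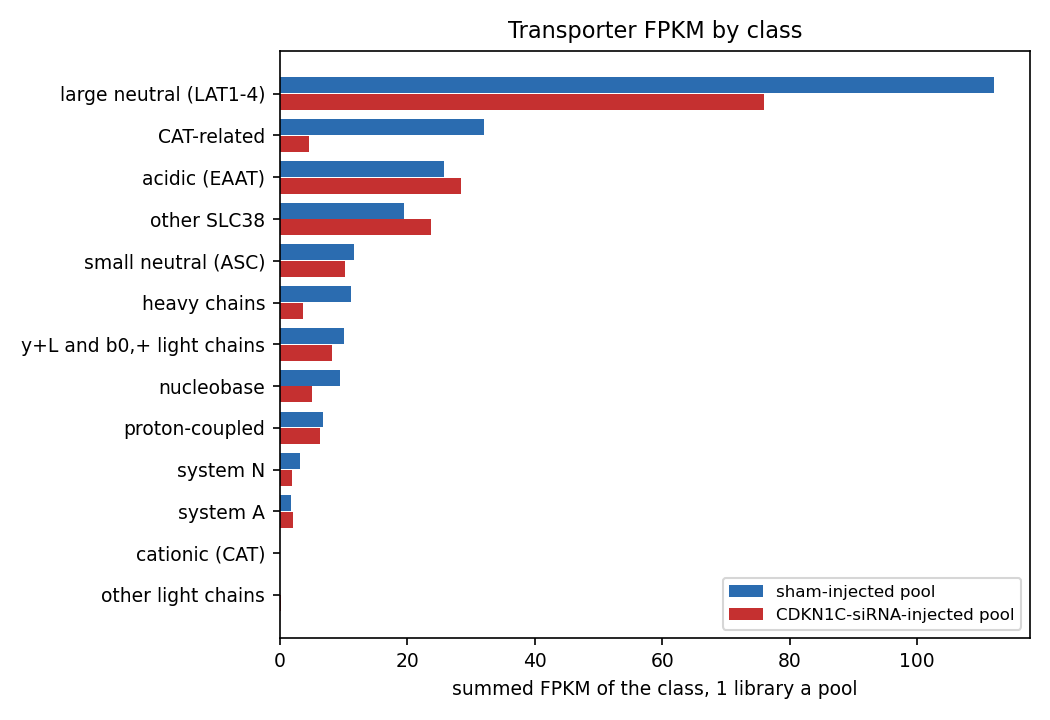
Summed FPKM (horizontal axis, from 0) of each transporter class in the sham pool (blue bars) and the siRNA pool (red bars), 1 library each, over all 36 members. The large neutral class is the longest bar in both pools, the CAT-related bar is 32.0 FPKM in the sham and 4.55 FPKM in the siRNA pool, and the acidic, system A and other SLC38 bars are longer in the siRNA pool, as is the bar of other light chains, near 0.

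SLC3A2, the 4F2 heavy chain or CD98, was the second member 2-fold or more lower in the siRNA pool. It carries SLC7A5, SLC7A6, SLC7A7, SLC7A8 and SLC7A11 to the cell surface and lies on chromosome 29 of bosTau7 from 42650413 to 42691291. It was 3.24 FPKM in the siRNA pool and 10.4 FPKM in the sham pool, a ratio of 3.20 in favour of the sham pool and a log2 difference of -1.42, with 5.87% of all genes as low. After adding 5 FPKM in place of 1 its difference was -0.90, inside 2-fold. The 5 light chains summed to 59.1 FPKM in the siRNA pool and 88.9 FPKM in the sham pool, with SLC7A5 at 69.0% and 81.4% of these. Light chain FPKM was thus 18.3 times heavy chain FPKM in the siRNA pool and 8.59 times in the sham pool. SLC7A11, the cystine-glutamate exchanger xCT, was 0.190 FPKM in the siRNA pool and 0.0524 FPKM in the sham pool, too low to compare.

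The other pair, SLC3A1 with the light chain SLC7A9, takes up cystine and cationic amino acids in kidney and gut and is known from the stone disease cystinuria. Both genes had means under 1 FPKM and were not counted. SLC3A1 was 0.423 FPKM in the siRNA pool and 0.783 FPKM in the sham pool, while SLC7A9 was 0.514 against 0.958 FPKM. Both were listed lower in the siRNA pool, and SLC7A9 was 1.22 times SLC3A1 in each pool. These levels are too low for a difference or a ratio to be read.

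**Figure D3:**
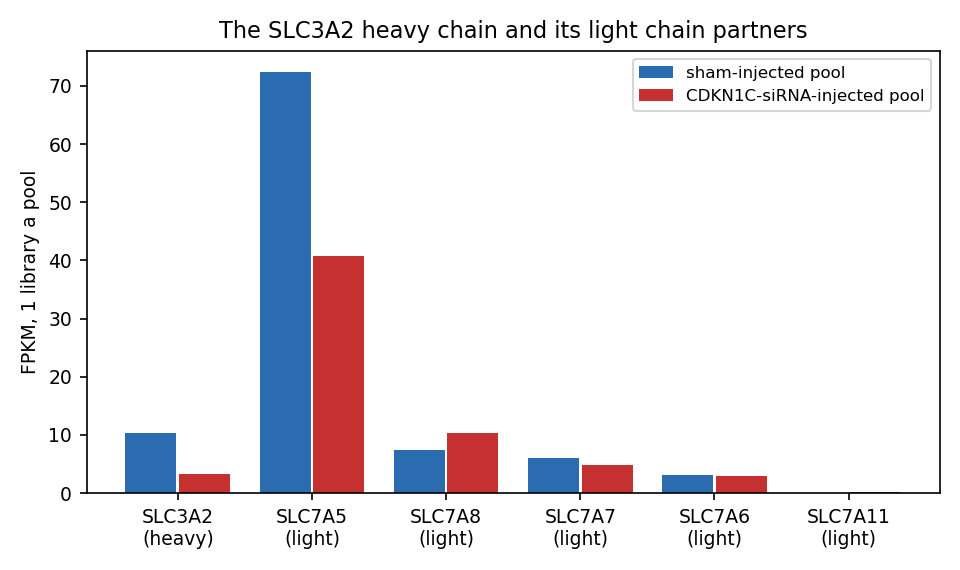
FPKM (vertical axis, from 0) of the heavy chain gene SLC3A2 and the 5 light chain genes that pair with it, in the sham pool (blue bars) and the siRNA pool (red bars), 1 library each. SLC7A5 is the highest bar in both pools, SLC3A2 is 10.4 FPKM in the sham and 3.24 FPKM in the siRNA pool, and SLC7A8 is the light chain with a visibly taller bar in the siRNA pool.

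Glutamate and aspartate carriers were higher in the siRNA pool by sum, at 28.5 FPKM against 25.8 FPKM, through SLC1A3. This gene encodes the glutamate carrier GLAST, or EAAT1, and lies on chromosome 20 of bosTau7 from 39690870 to 39772181. It was 8.36 FPKM in the siRNA pool and 3.98 FPKM in the sham pool, a ratio of 2.10. Its log2 difference of 0.91 was the highest of the 20 members, with 6.38% of all genes as high. It stood just inside 2-fold after adding 1 FPKM, and past it, at 1.05, after adding 0.1 FPKM. SLC1A1, or EAAT3, the most abundant member of this class, was 20.05 FPKM in the siRNA pool and 21.7 FPKM in the sham pool, a log2 difference of -0.11 that was 0.27 with equal totals, so SLC1A1 was 2.40 times SLC1A3 in the siRNA pool and 5.46 times in the sham pool. The carriers SLC1A2, or EAAT2, and SLC1A7, or EAAT5, known from brain and retina, were at or under 0.0985 FPKM in both pools.

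The related exchangers of small neutral amino acids differed little. SLC1A5, or ASCT2, a route for glutamine, was 7.004 FPKM in the siRNA pool and 7.35 FPKM in the sham pool, a log2 difference of -0.061. SLC1A4, or ASCT1, which prefers serine, alanine and cysteine, was 3.23 against 4.24 FPKM, a log2 difference of -0.31. With equal totals these differences were 0.29 and 0.0034. SLC36A1, the proton-coupled carrier PAT1 for glycine, alanine and proline, had the smallest difference of the 20 members, 6.17 against 6.15 FPKM. Its neighbour SLC36A2, or PAT2, was 0.0463 FPKM in the siRNA pool and 0.595 FPKM in the sham pool, below the mean of 1 FPKM, and SLC36A3 was listed at 0 in both. The 3 genes form a cluster on chromosome 7, with 14469 bases between SLC36A3 and SLC36A2 and 141507 bases between SLC36A2 and SLC36A1, and only SLC36A1 passed the filter.

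Members of the SLC38 family, sodium-coupled carriers of glutamine and other neutral amino acids, differed in both directions and within 2-fold. Of 6 averaging 1 FPKM or more, 4 were higher and 2 lower, with differences from -0.54 to 0.54 and a median of 0.13. Over all genes, 3329 of 7984 were higher. Among the 4, SLC38A2 at 0.12 and SLC38A11 at 0.14 differed little. SLC38A6, a little studied member, was 10.1 FPKM in the siRNA pool and 6.60 FPKM in the sham pool. SLC38A11, another, was 7.89 against 7.05 FPKM, and SLC38A9, the lysosomal arginine sensor that signals to mTORC1, was 3.82 against 3.10 FPKM. The 6 SLC38 genes averaging 1 FPKM or more together were 27.4 FPKM in the siRNA pool and 24.2 FPKM in the sham pool. SLC38A7, a carrier of glutamine and asparagine on the lysosome, was lower in the siRNA pool, at 1.82 FPKM against 3.11 FPKM, as was SLC38A10, at 1.86 against 2.66 FPKM.

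The classical system A genes lie together on chromosome 5, and SLC38A2 alone of them passed the filter. SLC38A2, or SNAT2, which cells induce when amino acids are short, was 1.93 FPKM in the siRNA pool and 1.70 FPKM in the sham pool, with the lowest mean of the 20 members at 1.81 FPKM. SLC38A1, or SNAT1, 56299 bases away, was 0.0559 FPKM in the siRNA pool and listed at 0 in the sham pool. SLC38A4, or SNAT4, which is imprinted in the mouse, was listed at 0 in both, as was SLC38A8. SLC38A3, or SNAT3, a system N glutamine carrier known from liver and brain, was 0.0592 against 0.0588 FPKM.

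In all, 16 members had a mean under 1 FPKM, and none of them reached 1 FPKM in either pool. They comprised 3 listed at 0 in both pools, 4 above 0 in the siRNA pool alone, 3 above 0 in the sham pool alone and 6 above 0 in both. Among them 4 reached 0.1 FPKM in either pool, SLC3A1, SLC7A9, SLC7A11 and SLC36A2. SLC7A9, with a mean of 0.736 FPKM, was the nearest below the filter. SLC7A13, a light chain for acidic amino acids, was 0.0452 FPKM in the siRNA pool and listed at 0 in the sham pool.

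**Figure D4:**
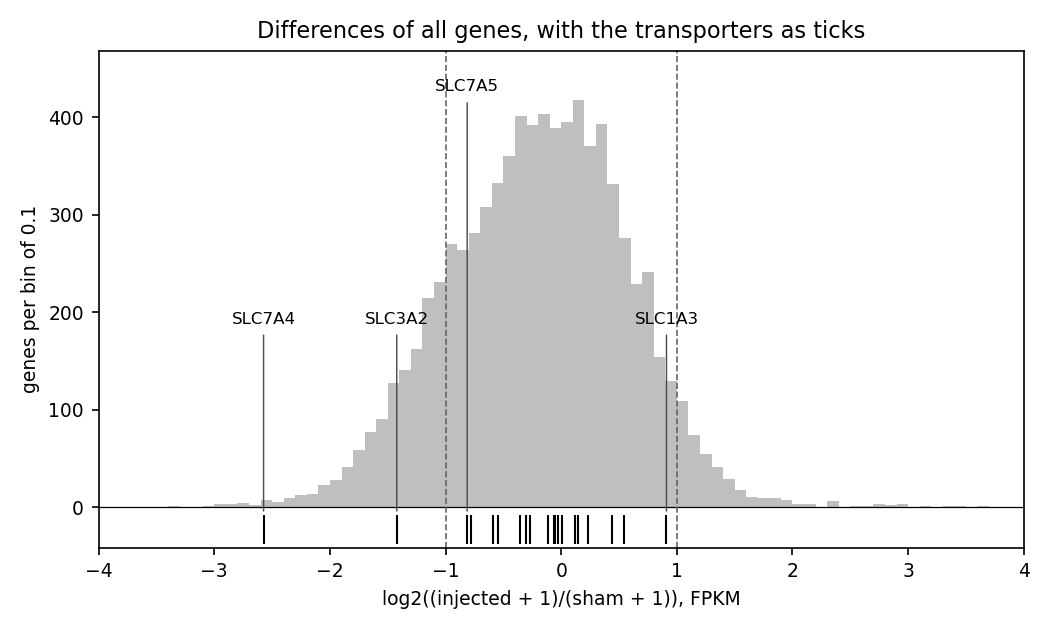
Number of genes (vertical axis) by log2((injected + 1)/(sham + 1)) of FPKM (horizontal axis, shown from -4 to 4, bins of 0.1) for the 7984 genes averaging 1 FPKM or more, with ticks below for the 20 transporters among them and dashed lines at 2-fold. The ticks of SLC7A4 at -2.57 and SLC3A2 at -1.42 lie outside the lines, and the other 18 lie between them, from SLC7A5 at -0.81 to SLC1A3 at 0.91.

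Genes that sense or use the carried amino acids were taken from 4 lists and described by the same measure. Over all 7984 genes, 4.92% were higher and 15.7% lower by 2-fold or more, and the counts of each list below are to be read beside these shares. Other amino acid and peptide transporters, mostly of the SLC6 and SLC15 families, had 6 of 16 genes averaging 1 FPKM or more, 0 higher and 2 lower by 2-fold or more, with a median of -0.71. The lowest was PQLC2, a lysosomal exporter of cationic amino acids, at 11.5 FPKM in the siRNA pool and 40.8 FPKM in the sham pool, followed by SLC16A10, a carrier of aromatic amino acids, at 1.03 against 3.09 FPKM. In amino acid sensing by mTORC1, 19 of 30 genes passed the filter, 1 higher and 4 lower by 2-fold or more, with a median of -0.68. KPTN, of the complex that tethers the GATOR1 inhibitor to the lysosome, was 0.655 against 4.16 FPKM, and SEH1L, of the opposing GATOR2 complex and the nuclear pore, was 17.5 against 6.15 FPKM.

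The amino acid response through the kinase GCN2 and the transcription factor ATF4, which induces several of the transporters when amino acids are short, had a median of -0.19 over 17 of 19 genes, 0 higher and 3 lower by 2-fold or more. PHGDH, the first enzyme of serine synthesis, was 6.53 FPKM in the siRNA pool and 21.2 FPKM in the sham pool, while NUPR1, a stress-induced nuclear protein, was 72.6 against 202.5 FPKM. IMPACT, which restrains GCN2, had the highest difference of that list, at 7.18 against 4.12 FPKM. Among enzymes of the carried amino acids, 20 of 26 genes passed, 2 higher and 4 lower by 2-fold or more, with a median of -0.47. GLUL, which makes glutamine from glutamate, was 30.2 FPKM in the siRNA pool and 12.5 FPKM in the sham pool, while CTH, which makes cysteine, was 8.26 against 3.27 FPKM. PYCRL and PYCR1, of proline synthesis, were 22.3 against 91.7 FPKM and 1.63 against 7.03 FPKM. The median of each of the 4 lists was lower than that of the transporters, -0.086, and that of all genes, -0.17, and no list was tested. For the GCN2 and ATF4 list, at -0.19, the gap to all genes was slight. The alternatives, under some of which the order of the transporters and all genes turned, were not run for the lists.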

How the data were processed

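RNA of each embryo pool was amplified (MessageAmp II) before library preparation and sequenced on a HiSeq. The authors used TopHat for mapping to bosTau7 and Cufflinks 2.0.2 for abundance, and the deposited FPKM are upper-quartile normalized and corrected for sequence bias. The gene annotation is not given in the sources used here. Amplification from the poly(A) end can favour 3′ ends, so a level per length may depend on the gene model as well as on the transcript. The fragments behind each value are unknown.

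Loci without a symbol, 615 of 22220, were left out, with 3.37% of FPKM in the siRNA pool and 3.41% in the sham pool, and loci of 1 symbol were summed. Samples were grouped by their labels, 1 pool a group, and differences were described by size, with no test. Genes averaging 1 FPKM or more over both pools were compared by log2 of the siRNA over the sham value, 1 FPKM added to each, and 2-fold or more was counted. The calculation was checked on simulated data. Every member is accounted for, and from each other list up to 2 of the highest and 2 of the lowest differences are named. The members and lists were chosen with earlier results of these data known. As alternatives, 0.1 or 5 FPKM was added, the filter was dropped or raised to 5 FPKM, values were centred on the median difference or scaled to equal totals, the locus with the highest mean replaced the sum, locus length was corrected for by loess (span 0.3), and folds of 1.5 and 4 were counted. The software was Python 3.11.15 with statsmodels 0.14.6, matplotlib 3.10.9, NumPy 2.4.6 and pandas 2.3.3.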

Additional observations from a re-analysis of the deposited data

How the results depend on the processing

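The 2 genes counted as 2-fold or more lower, SLC7A4 and SLC3A2, were past 2-fold under every alternative run except a pseudocount of 5 FPKM, which left SLC7A4 as the 1 gene. At 4-fold the count was 1 and at 1.5-fold it was 5. The count of higher genes was 0, and it became 1, SLC1A3, with a pseudocount of 0.1 FPKM, with the median difference of all genes set to 0, with the same total FPKM in both pools, and at 1.5-fold. Shares of all genes higher and lower by 2-fold or more moved too, from 4.92% and 15.7%. They were 8.67% and 20.5% with 0.1 FPKM added and 1.49% and 7.49% with 5 FPKM. Centring on the median gave 7.72% and 11.0%, equal totals 12.6% and 7.58%, and loess on locus length 7.52% and 8.60%. At 4-fold the shares were 0.413% and 1.05%, and at 1.5-fold 14.9% and 30.5%. The median difference of the members was -0.086. It became 0.080 with the median of all genes set to 0 and 0.26 with equal totals, which moved the median of all genes from -0.17 to 0.17. Under the other alternatives it stayed within 0.1 of its value, but fell below the median of all genes with loess on locus length (-0.13 against 0.011) and with no filter (-0.050 against -0.031). The spread between pools is unknown. Across all alternatives the log2 difference ran from -2.79 to -1.96 for SLC7A4, from -1.65 to -0.90 for SLC3A2, from -0.83 to -0.42 for SLC7A5 and from 0.57 to 1.27 for SLC1A3. The direction changed under at least 1 alternative for 7 of the 20 members, SLC1A1, SLC1A4, SLC1A5, SLC7A6, SLC7A7, SLC36A1 and SLC43A2, none of them counted. No paired analysis was possible because each group has 1 library. Members under 1 FPKM are limited by depth, which is unknown.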

Other observations

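Genes near the members on the chromosome, within 250 kb on either side and averaging 1 FPKM or more, were described after the values were seen. Of all genes tested, 58.3% were lower in the siRNA pool and 15.7% were lower by 2-fold or more. The median over the neighbours was below 0 for 14 of the 19 members that had any and above 0 for 5. These 19 are not separate regions. SLC7A7 and SLC7A8 share neighbours, as do SLC43A1 and SLC43A3, each of which is also counted as a neighbour of the other. Around SLC3A2, 18 of 21 neighbours were lower in the siRNA pool, 9 of them at least 2-fold, with a median log2 difference of -0.91 beside -1.42 for SLC3A2 itself. Around SLC7A4, 13 of 13 neighbours were lower, 1 of them at least 2-fold, with differences from -1.16 to -0.30, whereas SLC7A4 was at -2.57. Around SLC7A6, which was at -0.050, 7 of 13 neighbours were at least 2-fold lower, with a median of -1.01, and around SLC1A5, at -0.061, 3 of 6 were, with a median of -1.01. SLC7A5, at -0.81, had 3 neighbours, from -0.21 to -0.19, none of them 2-fold or more lower. Around SLC1A4, at -0.31, both of its 2 neighbours were higher, at 0.82 and 1.22. The part of the chromosomal surroundings in these differences was not tested.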
